A study of Mus musculus with 6 samples.

Results

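NMDA receptors are glutamate-gated cation channels that open when glutamate is bound and the membrane is depolarised, and the calcium they admit starts the signalling behind many forms of synaptic plasticity in the hippocampus. Each receptor is a tetramer built on the obligatory GluN1 subunit, which binds glycine or D-serine. GluN2 subunits bind glutamate and set channel kinetics, while GluN3 subunits lower calcium permeability. The genes described here are the 6 subunit genes Grin1, Grin2a, Grin2b, Grin2c, Grin2d and Grin3a. They were taken by name from the 52550 genes of the count table, and the same names gave 11 of the 40961 splicing events listed, in 4 of the 6 genes. The remaining subunit gene, Grin3b, lies outside this list and is given beside it.

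The study asked what hnRNP DL, a nuclear RNA-binding protein whose long isoform is called L-DL, does in the mouse hippocampus. RNA of the hippocampus was sequenced from 3 control (CTRL) libraries and 3 L-DL KD-labelled libraries. Per the study's methods, male C57BL/6 J wild-type mice, 8 weeks old, received adeno-associated virus in CA1 on both sides. The control virus carried a control shRNA. The other virus carried several L-DL shRNA sequences in tandem, each driven by an H1 promoter, and was injected at a lower stated titre than the control virus. The labels call the controls wild type and the treated mice both a knockdown and hnRNP DL-/-. Since RNA came from the hippocampus and the injection was aimed at CA1, each library can hold both infected and uninfected cells. The labels do not say that each library came from a separate mouse, so that p-values measure the spread between these libraries.

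Gene counts summed to between 16052529 and 17913064 per library. The targeted gene, Hnrnpdl, had 2862, 3120 and 2689 counts in the controls and 3939, 2680 and 2904 counts in the L-DL KD-labelled libraries. Its log2 fold change was 0.03 (SE 0.12, adjusted p = 0.898, edgeR), so no fall of the gene's total mRNA was detectable, and the group is named by its label throughout. The study assessed its knockdown in the hippocampus as L-DL protein by immunoblot, which these counts do not measure. Nor do the gene counts separate the long isoform from the short one. In bulk tissue, fewer cells of a type and less RNA per cell cannot be told apart. Levels are given as CPM, the read counts scaled to a common library total by TMM. Those of 12 pan-neuronal genes summed to 5734 to 6025 CPM in the controls and to 3435 to 4278 CPM in the L-DL KD-labelled libraries, and 10 of the 12 were called lower. For comparison with this and the lists below, 15.0% of all genes tested were called lower and 15.6% higher (adjusted p under 0.05, edgeR). Of 7 genes of CA1 pyramidal cells 4 were called lower, against 2 of 7 and 6 of 12 without control replicate 1, with sums of 460 to 542 CPM in the controls and 319 to 378 CPM in the others. Of 8 microglial genes, 8 were called higher, with sums of 1122 to 1399 CPM and 2377 to 3022 CPM. Choroid plexus genes ranged from 415.5 to 4492 CPM in the controls and from 26.8 to 5022 CPM in the L-DL KD-labelled libraries. The defining markers of cerebellum (Gabra6, Pcp2 and Cbln3) summed to at most 0.863 CPM in any library. Of the remaining lists, 3 of 4 endothelial genes were called higher and 0 lower, and 2 of 4 neocortical genes lower and 0 higher. Oligodendrocyte genes gave 1 of 6 higher and 0 lower, thalamic genes 1 of 4 higher and 0 lower, dentate granule genes 1 of 6 higher and 2 lower, and CA3 pyramidal genes 1 of 4 higher and 1 lower. Of 4 choroid plexus genes 0 were called, and 4 were called lower without L-DL KD replicate 1.

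Grin1 is spliced at 3 places, and these segments carry the splicing results below. The N1 cassette adds a stretch to the extracellular amino-terminal domain. The C1 cassette lies in the cytoplasmic tail and holds a signal that retains the protein in the endoplasmic reticulum. The last exon has a proximal acceptor, which gives the C2 tail, and a distal acceptor, which gives the C2′ tail, whose end binds PDZ domain proteins and favours export to the surface. The coding sequences below are from GENCODE M21 transcripts (GRCm38), 5′ to 3′ on the minus strand. The first pair have the cassette in capitals between the adjoining 12 bases of the neighbouring exons. The other pair have the tail in capitals, up to and including the stop codon, after the last 12 bases of the C1 cassette.
N1 cassette: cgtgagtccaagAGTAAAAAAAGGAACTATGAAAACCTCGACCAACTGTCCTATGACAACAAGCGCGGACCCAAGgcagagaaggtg
C1 cassette: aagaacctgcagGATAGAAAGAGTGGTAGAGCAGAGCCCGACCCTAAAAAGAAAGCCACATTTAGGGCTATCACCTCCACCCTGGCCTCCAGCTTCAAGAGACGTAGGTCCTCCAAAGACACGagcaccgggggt
C2 coding tail: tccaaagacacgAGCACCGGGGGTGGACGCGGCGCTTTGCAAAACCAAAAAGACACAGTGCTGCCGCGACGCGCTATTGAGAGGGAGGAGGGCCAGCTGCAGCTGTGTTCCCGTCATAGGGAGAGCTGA
C2′ coding tail: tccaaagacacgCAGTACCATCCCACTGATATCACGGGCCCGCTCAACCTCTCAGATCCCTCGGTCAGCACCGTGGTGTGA
The N1 cassette is exon 4 of transcript Grin1-204 (chr2:25311343-25311405, 63 nt). The C1 cassette is exon 20 of the same transcript (chr2:25294438-25294548, 111 nt). Both lengths are multiples of 3, so that the reading frame continues through either cassette. The coding part of C2 lies at chr2:25292368-25292484 (117 nt) in the last exon of Grin1-204, exon 21. The coding part of C2′ lies at chr2:25292060-25292128 (69 nt) in exon 21 of Grin1-208. The 8 protein-coding Grin1 transcripts of the annotation hold each combination of the 3 choices once.

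Total mRNA of most subunits was lower in the L-DL KD-labelled libraries. Of the 6 genes, 4 were called lower (Grin1, Grin2a, Grin2b and Grin2d) and 0 higher at an adjusted p under 0.05, by the quasi-likelihood test of edgeR over 17621 genes, adjusted by the Benjamini-Hochberg method. Over all genes tested, 15.0% were called lower and 15.6% higher. The median log2 fold change was -0.41 over the 6 subunits and 0.01 over all genes tested. In 5 of the 6 genes all 3 L-DL KD-labelled libraries lay below all 3 controls, which was so for 23.4% of all genes tested. All 6 genes passed the filter on low counts. At an unadjusted p under 0.05, Grin2c was also among the lower genes, which left Grin3a as the only member past neither threshold.

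**Figure D1:**
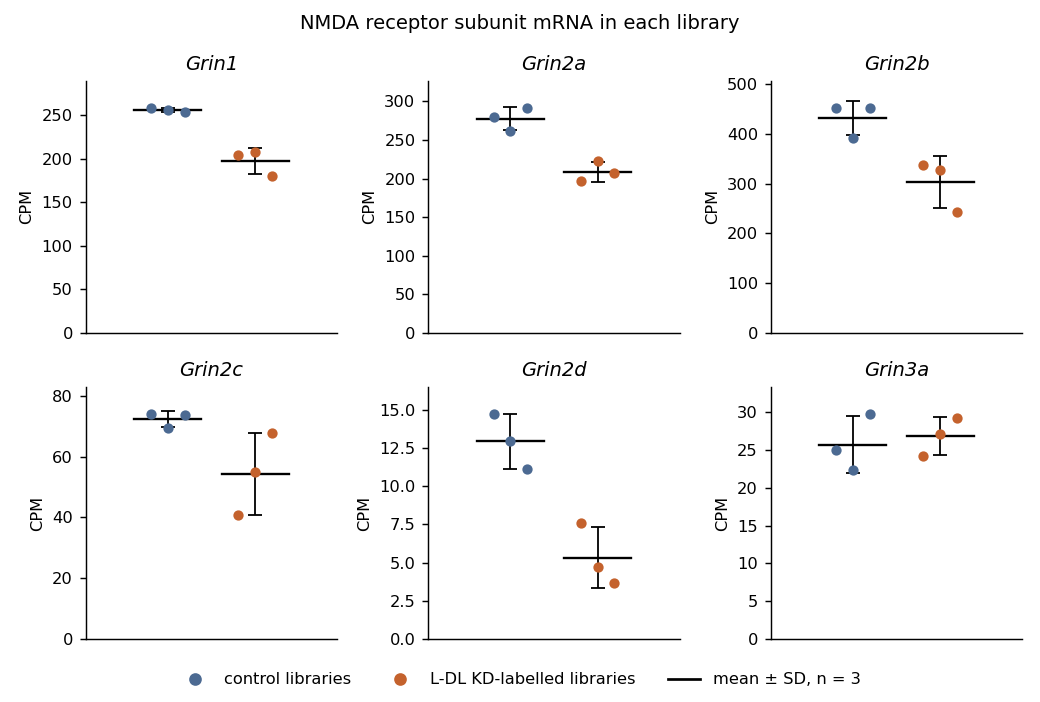
Level of each NMDA receptor subunit mRNA in CPM (vertical axes from 0), with 1 point per library; lines and bars give the mean and SD of 3 libraries. The points labelled L-DL KD lie below the controls for Grin1, Grin2a, Grin2b, Grin2c and Grin2d, and overlap them for Grin3a.

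Grin1 (ENSMUSG00000026959, chr2:25291181-25319187, minus strand) encodes GluN1, which every NMDA receptor needs. Its level was 258, 256 and 254 CPM in the controls and 204, 208 and 180 CPM in the L-DL KD-labelled libraries. The controls spanned only a few CPM, and all 3 other libraries lay below them. The means were 256 ± 2.09 CPM and 197 ± 14.9 CPM (SD, n = 3 each), a log2 fold change of -0.38 (SE 0.07, adjusted p = 0.00637, edgeR). An antisense gene, Grin1os, shares 1307 nt of exon with Grin1 and had means of 268 and 259 counts. The library kit does not mark strand, so reads in the shared part cannot be told apart.

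Among the GluN2 genes, Grin2a (ENSMUSG00000059003, chr16:9567898-9995560, minus strand) encodes GluN2A, whose share of synaptic receptors grows as the forebrain matures. It stood at 280, 262 and 292 CPM in the controls and at 196, 222 and 208 CPM in the L-DL KD-labelled libraries, without overlap. The log2 fold change was -0.41 (SE 0.07, adjusted p = 0.00488, edgeR). Grin2b (ENSMUSG00000030209, chr6:135713233-136173511, minus strand) encodes GluN2B, the subunit that binds CaMKII. It stood at 451, 392 and 452 CPM in the controls and at 338, 327 and 243 CPM in the L-DL KD-labelled libraries. The third L-DL KD-labelled library was the lowest by far, and the groups did not overlap. The log2 fold change was -0.51 (SE 0.13, adjusted p = 0.0186, edgeR). This call depended on the controls, with an adjusted p of 0.0695 without control replicate 1 and of 0.0696 without control replicate 3.

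Grin2c (ENSMUSG00000020734, chr11:115249169-115267243, minus strand) encodes GluN2C, best known from cerebellar granule cells and also made by astrocytes. Its level was 74.0, 69.5 and 73.7 CPM in the controls and 40.7, 54.8 and 67.7 CPM in the L-DL KD-labelled libraries. The groups did not overlap, but the latter 3 libraries spread widely. The log2 fold change was -0.41 (SE 0.16), and the adjusted p of 0.0882 (edgeR) missed the threshold. It passed without L-DL KD replicate 3 (0.0131), without a filter on low counts (0.0431) and with DESeq2 (0.0422). Of 8 astrocyte genes, 4 were called lower and 1 higher, with sums of 4944 to 5432 CPM in the controls and 4033 to 4858 CPM in the L-DL KD-labelled libraries. Their part in the Grin2c values was not tested.

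Grin2d (ENSMUSG00000002771, chr7:45831883-45878378, minus strand) encodes GluN2D, which gives slowly decaying currents and in the adult hippocampus is found mainly in interneurons. It had the largest fold change of the 6 subunit genes. Its level was 14.7, 13.0 and 11.1 CPM in the controls and 7.60, 4.71 and 3.69 CPM in the L-DL KD-labelled libraries, from counts of 239, 221, 175, 138, 84 and 62. The mean was therefore 12.9 ± 1.81 CPM against 5.34 ± 2.03 CPM (SD, n = 3 each), with no overlap. The log2 fold change was -1.28 (SE 0.26, adjusted p = 0.00847, edgeR), which is 41.3% of the control level. Of 8 genes that mark interneurons, 5 were called lower and 0 higher, their median log2 fold change was -1.11, and their sums were 633 to 707 CPM and 246 to 454 CPM. Without control replicate 1, 3 of the 8 were called lower. Gad1, which makes the transmitter GABA, had a log2 fold change of -1.06 (adjusted p = 0.00198, edgeR), and Sst, the peptide somatostatin of one interneuron class, -1.42 (adjusted p = 0.00142, edgeR). Pvalb and Npy, which mark other interneuron classes, had values of 0.28 and 0.45 that did not pass (adjusted p = 0.238 and 0.276, edgeR). The part of this cell type in the Grin2d values was not tested. An antisense gene, Gm45441, shares 643 nt of exon with Grin2d and had means of 11.3 and 2.33 counts.

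Of the GluN3 genes, Grin3a (ENSMUSG00000039579, chr4:49661611-49845744, minus strand) encodes GluN3A, a subunit abundant in the young brain that limits calcium entry. It was at 25.0, 22.4 and 29.8 CPM in the controls and at 24.2, 27.1 and 29.3 CPM in the L-DL KD-labelled libraries, so that the groups overlapped. The log2 fold change was 0.06 (SE 0.13, adjusted p = 0.759, edgeR), and it became -0.03 without control replicate 2. Grin3b, which encodes GluN3B and is best known from motor neurons, had between 17 and 36 counts in any library (adjusted p = 0.471, edgeR). It shares 1059 nt of exon with Tmem259 on the opposite strand, so that even these few counts are uncertain.

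Compared per length, as CPM per kilobase of all annotated exon sequence, the subunit levels in the controls formed 2 tiers. Grin1 came first at 26.4 ± 0.215 (SD, n = 3). It was followed by Grin2b at 17.4 ± 1.38, Grin2a at 15.5 ± 0.822 and Grin2c at 14.4 ± 0.501 CPM per kilobase. The neighbours Grin2b and Grin2a overlapped between libraries, as did Grin2a and Grin2c. Grin3a and Grin2d were far lower, at 2.1 ± 0.306 and 1.95 ± 0.272 CPM per kilobase, and overlapped each other. In the L-DL KD-labelled libraries the means kept this order, but Grin2b, Grin2a and Grin2c overlapped, and in replicate 3 Grin2c came first of these at 13.4, before Grin2a at 11.6 and Grin2b at 9.77 CPM per kilobase. Grin2d, at 0.801 ± 0.305, did not overlap Grin3a, at 2.19 ± 0.208 CPM per kilobase. These lengths include long untranslated regions that not every transcript has, so that the order is approximate.

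Ratios among the abundant subunit mRNAs overlapped between the groups. The number of Grin2a counts per Grin2b count was 0.620, 0.668 and 0.645 in the controls and 0.582, 0.679 and 0.856 in the L-DL KD-labelled libraries. The groups overlapped, and the mean log2 ratio differed by 0.11 (two-sided exact permutation p = 0.7). Of the ratios of each GluN2 or GluN3A gene to Grin1, those of Grin2a, Grin2b and Grin2c also overlapped between the groups. The log2 ratio of Grin2d to Grin1 was -4.32 ± 0.192 in the controls and -5.27 ± 0.463 in the L-DL KD-labelled libraries (SD, n = 3 each), without overlap. That of Grin3a to Grin1 was -3.33 ± 0.215 and -2.88 ± 0.232, also without overlap. The exact permutation p was 0.1 for both, the smallest that 3 against 3 libraries allow, and 0.25 after adjustment over the 5 ratios to Grin1, so that this design could not reach an adjusted p under 0.05.

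Set against neuronal RNA rather than all RNA, the subunits read differently. Counts of each gene were divided by the summed counts of the 12 pan-neuronal genes of the same library, whose median log2 fold change was -0.56. On this scale Grin1 had 42.9, 44.7 and 42.8 counts per 1000 pan-neuronal counts in the controls and 47.7, 51.4 and 52.5 in the L-DL KD-labelled libraries. The direction was thus opposite to that in CPM, with a log2 difference of 0.22 and no overlap. The differences for Grin2a and Grin2b were 0.18 and 0.07, and the one for Grin2c was 0.15, all with overlapping groups. Grin2d stayed lower, with a log2 difference of -0.74 and no overlap. Grin3a was higher on this scale, by 0.66, without overlap. The exact permutation p was 0.1 for Grin1, Grin2d and Grin3a, 0.3 for Grin2a, 0.4 for Grin2b and 0.7 for Grin2c. In the summed counts the abundant genes weigh most, in the controls Snap25 and Syt1, with log2 fold changes of -1.005 and -0.923. Syn1, Uchl1, Eno2, Map2 and Thy1 fell less than Grin1 or rose, at -0.20, 0.19, -0.32, -0.36 and -0.35. The rest of the 12 fell more than Grin1. The direction for Grin1 can therefore depend on the neuronal genes chosen, and other choices were not tested. The lower CPM of Grin1, Grin2a and Grin2b thus went along with lower CPM of pan-neuronal genes, whose part in each value was not tested.

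**Figure D2:**
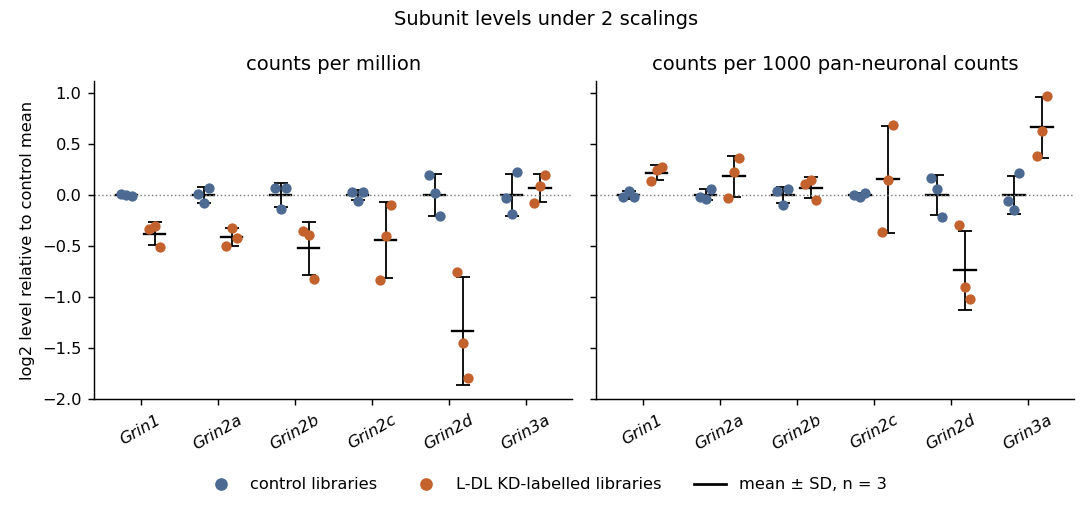
Level of each subunit gene in each library as the log2 difference from the control mean, in CPM (left) and per 1000 summed counts of 12 pan-neuronal genes (right); bars give the mean and SD of 3 libraries. Of the members, Grin2d has all 3 L-DL KD-labelled libraries below the controls on both scales, while Grin1 lies below the controls on the left and above them on the right.

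Many other genes followed the same pattern over the 6 libraries. Among 11019 genes with a mean of at least 10 CPM, 895 had a Pearson r of at least 0.95 with Grin1 on the log2 CPM scale, against 431 for Grin2a and 375 for Grin2b. The 3 genes most like Grin1 were Phyhip (r = 0.999), Dlg2 (r = 0.999) and Hsd11b1 (r = 0.998). Those most like Grin2a were Ddhd1, Kcnj10 and Zswim6 (each with r = 0.996), and those most like Grin2b were Dpy19l3 (r = 0.999), Reps2 (r = 0.997) and Kif1a (r = 0.997). Dlg2 encodes PSD-93, a postsynaptic scaffold protein that binds GluN2 tails, and Kif1a a motor for synaptic vesicle precursors. The 6 libraries belong to 2 groups, so that these correlations include the difference between the groups, and they are given without a test.

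Genes whose products hold, move, modify or follow the receptor were lower more often than higher. Of 41 such partners 40 could be tested, and 15 were called lower and 4 higher, with a median log2 fold change of -0.21. With 1 library left out in turn, between 12 and 20 were called lower and between 2 and 7 higher, the most of both without L-DL KD replicate 1. The 15.0% and 15.6% called over all genes apply here too. Among scaffold and anchoring genes 3 of 10 were called lower and 1 higher. Nefl, a neurofilament subunit that binds GluN1, was the one that rose, from 253 ± 9.64 to 464 ± 38.1 CPM (SD, n = 3 each), a log2 fold change of 0.88 (adjusted p = 0.000289, edgeR). Actn2, an actin cross-linker that binds GluN1 and GluN2B, had a log2 fold change of -1.42 (adjusted p = 0.00155, edgeR). The PSD-95 gene Dlg4, the main postsynaptic scaffold, fell from 622 ± 37.0 to 450.5 ± 18.2 CPM (adjusted p = 0.00259, edgeR).

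Genes of enzymes that act on the receptor were called in both directions. Of 11 kinase and phosphatase genes, 5 were called lower and 2 higher. With 1 library left out in turn, 4 or 5 were called lower and between 0 and 3 higher. Camk2a, the CaMKII subunit that docks on GluN2B, fell from 3998 ± 118 to 2406 ± 64.0 CPM (SD, n = 3 each), a log2 fold change of -0.73 (adjusted p = 0.000324, edgeR). Ptk2b, the calcium-activated kinase Pyk2 upstream of Src, had a log2 fold change of -0.52 (adjusted p = 0.000817, edgeR). Fyn, which phosphorylates GluN2B, and Csnk2a1, a catalytic subunit of casein kinase 2, were called higher, with log2 fold changes of 0.35 (adjusted p = 0.012, edgeR) and 0.24 (adjusted p = 0.0251, edgeR). Neither call was stable: that of Fyn was lost without control replicate 2 (0.0503) or 3 (0.0517), and that of Csnk2a1 was kept only without L-DL KD replicate 1 (adjusted p up to 0.101 otherwise). Both calcineurin A genes on the list were called lower, with log2 fold changes of -0.93 for Ppp3ca and -0.78 for Ppp3cb.

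In downstream signalling 6 of 9 genes were called lower and 0 higher, with a median log2 fold change of -0.36. Rasgrf1, a calcium-activated exchange factor for Ras, had a log2 fold change of -0.66 (adjusted p = 0.000377, edgeR), and Calm2, a calmodulin gene, of -0.65 (adjusted p = 0.00056, edgeR). Of 5 transport and recycling genes, 1 was called lower and 0 higher. This was Apba1, whose product Mint1 links GluN2B cargo to the kinesin Kif17, with a log2 fold change of -1.08 (adjusted p = 0.000683, edgeR). The runner-up of that list, Gipc1, missed the threshold (adjusted p = 0.118, edgeR). Of the 5 tested genes for the supply of the co-agonists glycine and D-serine, 1 was called higher and 0 lower, against 2 and 2 without L-DL KD replicate 1. It was Slc1a4, a neutral amino acid transporter, at 79.7 ± 5.99 CPM in the controls and 128.5 ± 15.6 CPM in the L-DL KD-labelled libraries (adjusted p = 0.002, edgeR). Srr, which makes D-serine, was at 39.4 ± 3.06 and 30.4 ± 6.05 CPM and did not pass (adjusted p = 0.0945, edgeR).

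**Figure D3:**
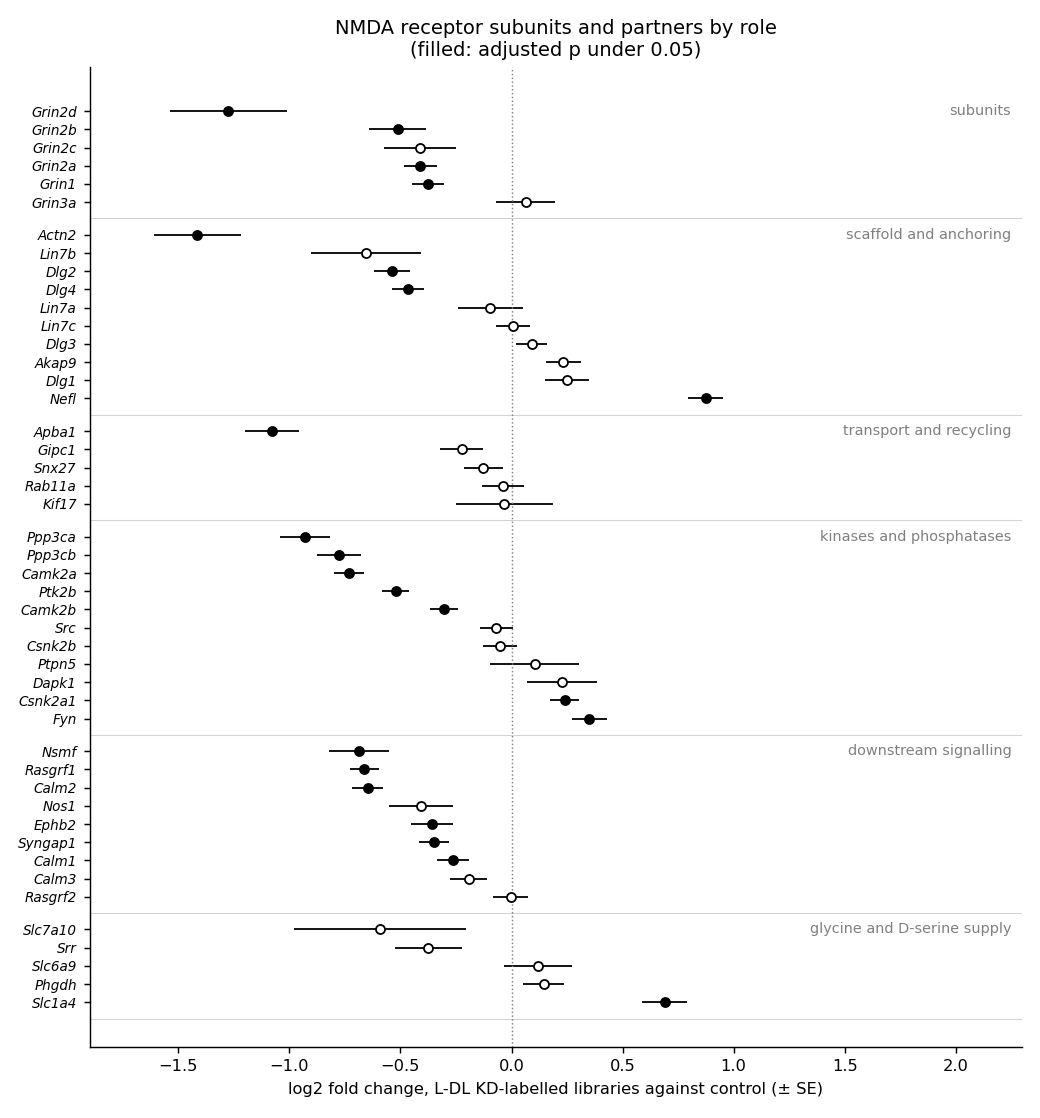
Log2 fold change of each subunit and partner gene tested, grouped by role, with its SE on the horizontal axis; filled points passed an adjusted p under 0.05 (edgeR). Filled points lie to the left of 0 for 4 subunits and 15 partners and to the right for Nefl, Fyn, Csnk2a1 and Slc1a4.

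Splicing was read from the junction counts that include or skip the segment of each listed event, expressed per library as PSI, the length-corrected fraction of the inclusion form. Of the 11 events in subunit genes, 5 had enough counts of both forms for the edgeR test, and all 5 were in Grin1. At an adjusted p under 0.05, 0 of the 5 were called by edgeR, against 0.255% of the 18829 events tested, and 0 by limma. At an unadjusted p under 0.05 there were 3 by edgeR, against 13.3% of all events tested, and 2 by limma. In the same 3 events PSI did not overlap between the groups, as in 18.4% of all events tested. These 3 events are the N1 cassette, the C1 cassette joined to C2′ and the C2 segment joined to exon 19. The last 2 share their skipping junction and are not separate observations, and the events at the C1 cassette share the reads that enter it from exon 19.

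**Figure D4:**
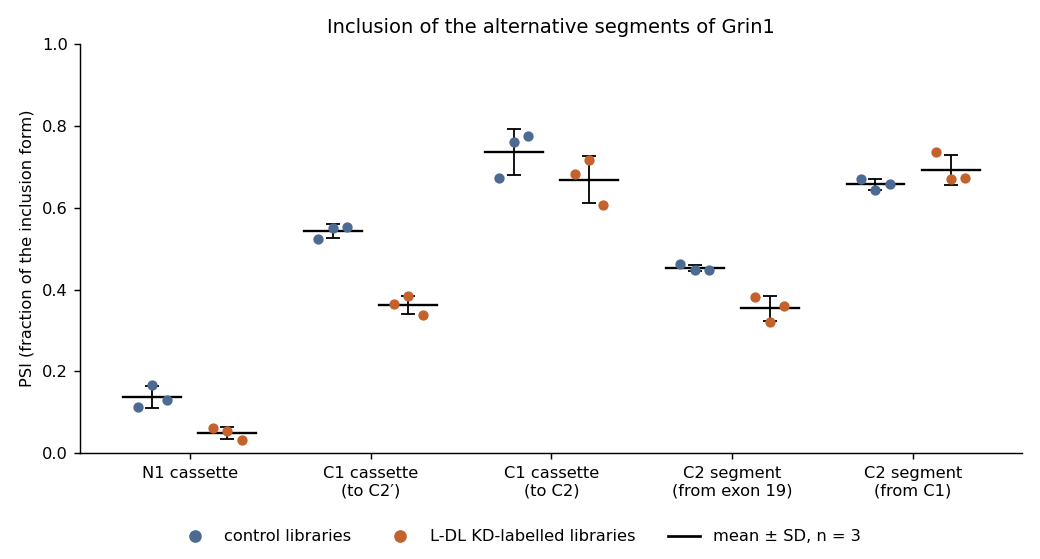
PSI (fraction of the inclusion form, vertical axis) of the 5 tested Grin1 events in each library, with the mean and SD of 3 libraries. The N1 cassette, the C1 cassette joined to C2′ and the C2 segment joined to exon 19 are lower in all 3 L-DL KD-labelled libraries than in any control; the other pair overlap.

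The N1 cassette was a minor form in all libraries. It had 48, 77 and 65 inclusion counts beside 264, 271 and 306 skipping counts in the controls. In the L-DL KD-labelled libraries it had 20, 25 and 11 inclusion counts beside 217, 313 and 232 skipping counts. PSI was 0.114, 0.167 and 0.130 in the controls and 0.0611, 0.0534 and 0.0324 in the L-DL KD-labelled libraries. All 3 of the latter lay below all 3 controls. The means were 0.137 ± 0.0273 and 0.049 ± 0.0149 (SD, n = 3 each). The log2 odds ratio of inclusion was -1.61 (SE 0.37), with an unadjusted p of 0.000922 and an adjusted p of 0.101 (edgeR), which missed the threshold.

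At the C1 cassette, inclusion was measured against a jump from exon 19 either to the C2′ or to the C2 acceptor. Against the C2′ acceptor, PSI was 0.523, 0.551 and 0.554 in the controls and 0.364, 0.384 and 0.339 in the L-DL KD-labelled libraries. Within each group the 3 values lay close together, and the groups were well apart. The inclusion counts were 371, 360 and 345 in the controls and 204, 217 and 179 in the L-DL KD-labelled libraries. The skipping counts were 195, 169 and 160 in the controls and 205, 200 and 201 in the others, so that before scaling for depth the inclusion counts lay below all controls and the skipping counts above them. The log2 odds ratio was -1.06 (SE 0.25, unadjusted p = 0.00116 and adjusted p = 0.107, edgeR). Against the C2 acceptor, PSI was 0.673, 0.761 and 0.776 in the controls and 0.682, 0.718 and 0.606 in the L-DL KD-labelled libraries. These groups overlapped (log2 odds ratio -0.47, adjusted p = 0.589, edgeR).

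Use of the C2 acceptor was counted separately from exon 19 and from the C1 cassette, but both inclusion counts hold the same reads across the boundary within the last exon. From exon 19, PSI of the 356 nt segment between the acceptors was 0.461, 0.447 and 0.448 in the controls and 0.382, 0.320 and 0.360 in the L-DL KD-labelled libraries, without overlap. The log2 odds ratio was -0.59 (SE 0.26, adjusted p = 0.354, edgeR). From the C1 cassette, PSI was 0.671, 0.643 and 0.657 in the controls and 0.735, 0.669 and 0.674 in the L-DL KD-labelled libraries, where the groups overlapped (log2 odds ratio 0.24, adjusted p = 0.798, edgeR). From the splice junctions alone, PSI from exon 19 was 0.407, 0.332 and 0.310 in the controls and 0.260, 0.237 and 0.274 in the L-DL KD-labelled libraries, still without overlap. From the C1 cassette it was 0.675, 0.659 and 0.655 in the controls and 0.688, 0.661 and 0.588 in the others, which overlapped. In each library C2 was used more often after C1 than after exon 19.

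The events at the C1 cassette and the C2 segment overlap. Their counts can be resolved into the 4 junctions that enter the last exon of Grin1, one for each combination of C1 with C2 or C2′. The junctions from exon 19 and the one from C1 to C2′ are skipping counts of a listed event. The junction from C1 to C2 was obtained by subtracting counts, and is approximate where 1 read spans a pair of junctions. The junction from exon 19 straight to C2′, the form without C1 and without C2, had 195, 169 and 160 counts in the controls and 205, 200 and 201 counts in the L-DL KD-labelled libraries. The junction from C1 to C2 had 208, 220 and 186 counts in the controls and 119, 117 and 80 in the others. From C1 to C2′ there were 100, 114 and 98 counts in the controls and 54, 60 and 56 in the L-DL KD-labelled libraries. From exon 19 to C2 there were 134, 84 and 72 counts in the controls and 72, 62 and 76 in the L-DL KD-labelled libraries. In these counts, which are not scaled for depth, both junctions that leave C1 were lower in every L-DL KD-labelled library than in any control, and the form with neither C1 nor C2 was higher. All listed junction counts summed to between 6760349 and 7089670 in the controls and to between 7153540 and 7939931 in the others.

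As shares of the 4 junctions, the form without C1 and C2 made up 30.6%, 28.8% and 31.0% in the controls and 45.6%, 45.6% and 48.7% in the L-DL KD-labelled libraries. It was the second most used of the 4 in each control after the form with C1 and C2, and the most used in each L-DL KD-labelled library. The form with C1 and C2 made up 35.4 ± 2.48% and 24.2 ± 4.14% (SD, n = 3 each), and the form with C1 and C2′ 18.04 ± 2.04% and 13.1 ± 0.934%, both without overlap. The share of C2 without C1 was 16.4 ± 3.99% and 16.2 ± 2.15%, and overlapped. The exact permutation p was 0.1 for each of the 3 shares that did not overlap, the smallest possible, and 0.9 for the other. The 4 shares sum to 100% and are not independent of each other. As CPM of all listed junction counts of the same library, the form without C1 and C2 had 25.1 ± 2.42 and 26.4 ± 1.51 CPM, which overlapped (exact permutation p = 0.5). The form with C1 and C2 had 29.5 ± 1.79 and 13.7 ± 2.16 CPM, and the form with C1 and C2′ 15.0 ± 0.965 and 7.41 ± 0.509 CPM, both without overlap. C2 without C1 had 13.9 ± 4.64 and 9.18 ± 1.41 CPM, where the highest L-DL KD-labelled library, at 10.6, came just under the lowest control, at 10.7 CPM. The exact permutation p was 0.1 for each of these 3.

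**Figure D5:**
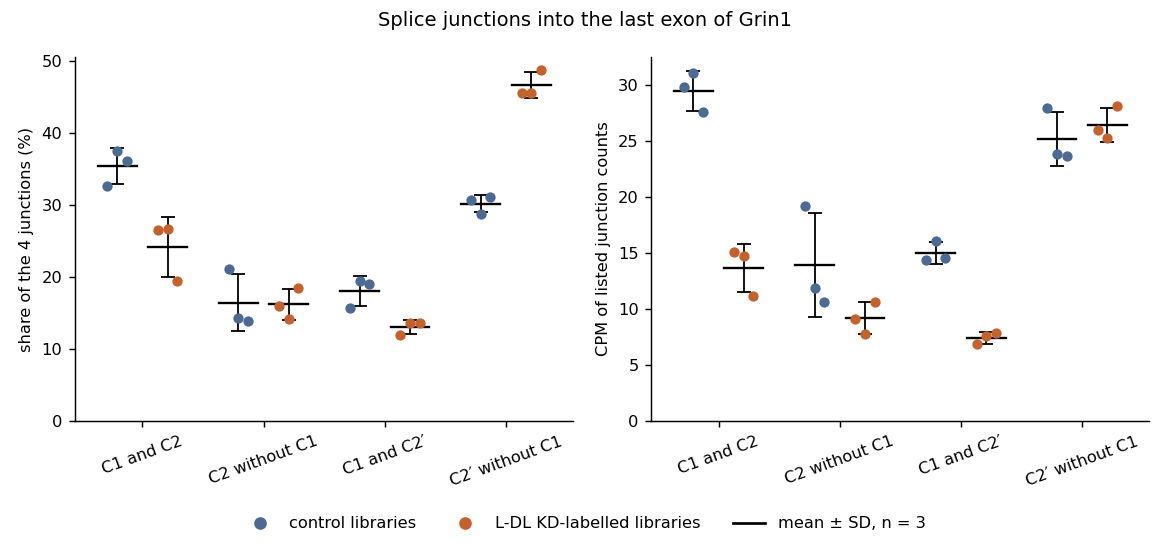
The 4 junctions into the last exon of Grin1 in each library, as a percentage of their sum (left) and as CPM of all listed junction counts (right), with the mean and SD of 3 libraries. In the L-DL KD-labelled libraries the share of C2′ without C1 is above all controls, at 45.6% to 48.7%, while its CPM overlaps the controls and the CPM of the other 3 forms lies below them, for C2 without C1 only just.

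The remaining 6 events had few counts or a single form. Exon 18 of Grin1 (chr2:25296025-25296134, 110 nt) was included in 509 to 802 counts per library and skipped in at most 2. A 60 nt alternative acceptor segment of Grin3a (chr4:49665566-49665625) had 9 to 24 counts per library and a mean PSI of 0.133 ± 0.12 in the controls and 0.153 ± 0.114 in the L-DL KD-labelled libraries (SD, n = 3 each). A 605 nt exon of the same gene was skipped in 1 count of all libraries together. A 166 nt acceptor segment of Grin2b had 2 to 16 counts per library. The pair of Grin2c exons had at most 6 and at most 31 counts in any library. Apart from exon 18 of Grin1, differences in these events were not detectable at this depth. For Grin2a and Grin2d no event was listed in the table used here.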

How the data were processed

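Hippocampal RNA of 3 control libraries and 3 L-DL KD-labelled libraries was sequenced with the NEBNext Ultra RNA kit, which does not mark strand. Total RNA was isolated, and mRNA was then enriched from it with oligo(dT) beads, per the study's methods. The deposited gene table holds counts of reads for each Ensembl gene, which the authors did not normalize. The submitters' processing notes name HISAT2 2.1.0, HTSeq 0.6.1 and Bowtie 1.1.2 and the build mm10 (GRCm38); the strand setting is not given in the sources used here. The authors also deposited rMATS junction counts for 5 event types, with effective lengths of both forms. That table's PSI, p-value, FDR and PSI difference columns hold the authors' own comparison and were not used; 2 of them hold PSI per library. Its sample 1 was read as L-DL KD and sample 2 as control, since the study defines its PSI difference as knockdown minus control. The largest event count of each gene in each library correlated best, across genes, with the gene counts of the same group and place for 6 of 6 columns.

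Genes were kept where 3 or more libraries had 10 or more counts, scaled by TMM and tested with edgeR 4.0.16 (quasi-likelihood, R 4.3.3) on the groups, with Benjamini-Hochberg adjustment and a threshold of 0.05. Events were kept where libraries averaged 20 or more counts, and 1 or more of either form, and tested with edgeR on both forms of each library, with a library effect, a form effect and their change between groups. PSI was computed from inclusion and skipping counts, each first divided by the effective length of its form. Single values were compared by exact permutation over the 3 against 3 libraries (two-sided, smallest p 0.1). Alternatives were DESeq2 1.42.0, limma 3.58.1 for events (log2 of inclusion over skipping, pseudocount 0.5), other scalings and filters, a replicate block, PSI without effective lengths, scaling by pan-neuronal counts and leaving out each library. The junction forms of Grin1 and the use of 1 event per segment were added after the data were seen. On simulated data the gene test recovered 145 of 200 genes changed by 1 on the log2 scale, with 8 unchanged genes called of 17293. The event test recovered 135 of 200 events shifted by 1.5 on the logit scale, with 3 unchanged events called of 17468. The changed genes and events were drawn from those with more counts than the filters asked for, and the events from those where neither form was rare. That logit shift is larger than the change of any Grin1 event on the same scale, so recovery of changes of the Grin1 size was not simulated.

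The members, partner lists and marker lists were chosen with earlier results of these data known. All members were named, with 2 partners per role by smallest adjusted p; Dlg4, Ppp3ca, Ppp3cb, Fyn, Csnk2a1, Gad1 and Sst were named after their values were seen. Library totals limit precision by counting error; low genes such as Grin2d and the N1 cassette rest on few counts. Analyses were run in Python 3.11.15.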

Additional observations from a re-analysis of the deposited data

How the results depend on the processing

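The calls for Grin1, Grin2a and Grin2d held under every scaling, filter, tool and omitted library tried in the test over all genes. With each library left out in turn, the log2 fold change ranged from -0.41 to -0.31 for Grin1, from -0.45 to -0.37 for Grin2a, from -0.60 to -0.37 for Grin2b, from -0.60 to -0.24 for Grin2c, from -1.62 to -1.07 for Grin2d and from -0.031 to 0.18 for Grin3a (-0.031 without control replicate 2). Grin2b was -0.48 and not called without control replicate 1 or 3, and Grin2c was called lower with DESeq2 (-0.41), without a filter (-0.41) and without L-DL KD replicate 3 (-0.60); between 3 and 5 members were called lower. Per pan-neuronal count the log2 differences were 0.22 for Grin1, 0.18 for Grin2a, 0.0702 for Grin2b, 0.15 for Grin2c, -0.74 for Grin2d and 0.66 for Grin3a. All genes called lower ranged from 1676 to 3241 and those called higher from 1770 to 3236 when a library was left out; the fewest came without a control, 1676, 1746 and 1728 lower without replicates 1, 2 and 3, and 1795 and 1770 higher without replicates 2 and 3.

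Replicate numbers gave no clear pairing of the libraries. The correlation of deviations from the group means between libraries of the same number was 0.0626, 0.157 and -0.140. The highest between a control and an L-DL KD-labelled library of another number was -6.62e-06, 0.143 and 0.162. With so few libraries this check cannot show whether they were paired. With the replicate block the fit called 2324 genes lower and 2311 higher, and the members called lower were 4, as without it. Under the block the log2 fold change was -0.38 for Grin1, -0.41 for Grin2a, -0.53 for Grin2b, -0.44 for Grin2c, -1.32 for Grin2d and 0.07 for Grin3a; paired ratios cannot go below an exact p of 0.25. A paired fit of the junction counts was not run; a library left out there is named by its place in the count lists.

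The number of events called, 48 in the test reported, ranged from 0 to 52 with a library left out: it was 3, 5 and 0 without control replicates 1, 2 and 3, and 3 and 16 without L-DL KD replicates 2 and 3, where 1986 to 2114 events had an unadjusted p under 0.05. Limma called 0, with 2377 events at an unadjusted p under 0.05. No member event was called under any of these settings. With a library left out the log2 odds ratio ranged from -1.79 to -1.38 for the N1 cassette and from -1.13 to -0.99 for the C1 cassette joined to C2′. Without effective lengths the PSI difference of the N1 cassette was -0.116, against -0.0882 with them. The log2 ratio of Grin2a to Grin2b ranged from -0.03 to 0.24, so that its direction rested on single libraries. The share of C2 without C1 likewise changed sign, from -1.5 to 2.04 percentage points, while the share of C2′ without C1 was higher by 15.4 to 17.0 percentage points. Without the boundary reads, the PSI difference of the C2 segment was -0.0929 from exon 19 and -0.0173 from the C1 cassette. Without L-DL KD replicate 1, calls went to 2 higher and 3 lower for dentate granule genes, 3 higher for astrocytes, 2 lower for CA3 and for transport genes, and 2 higher for scaffold genes. Without L-DL KD replicate 3, 2 scaffold and 3 oligodendrocyte genes were higher. With any library except L-DL KD replicate 1 left out, 1 dentate granule gene was lower, and 1 neocortical gene without control replicate 1 or 3. Depth limits Grin3b and the untested events other than exon 18 of Grin1.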
